A study of Mus musculus with 10 samples.

Results

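The TGF-beta ligands, receptors and latent binders are the 3 ligand genes Tgfb1, Tgfb2 and Tgfb3, the 3 receptor genes Tgfbr1, Tgfbr2 and Tgfbr3, and the 4 latent TGF-beta binding protein genes Ltbp1, Ltbp2, Ltbp3 and Ltbp4. They were taken by gene symbol, and these 10 of 19942 gene symbols hold 11 of the 26423 probes on the array, since Tgfb2 has 2 probes. After a filter on low values, which took out any probe whose scaled intensity was under 1 on at least 1 array, 10 of the 11 member probes and 19976 of all probes remained, and the only member probe removed was that of Tgfbr1. The mRNA came from the left ventricle of male C57BL/6J mice operated on at the age of 8 weeks. One group underwent transverse aortic banding (TAB), a ligature around the aortic arch that raises the pressure against which the left ventricle pumps, and the other underwent a sham operation. Hearts of both groups were sampled at days 3, 5, 7 and 14 and at day 28, with 1 sample per operation and day, which makes 10 samples. How many mice a sample held is not given in the sources used here. In the labels of the day-14 TAB sample, the condition field gives 15 days whereas the title gives 14, and the sample was used as day 14.

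TGF-beta cytokines are secreted in a latent form, in which the mature dimer stays bound to its own propeptide. Latent TGF-beta binding proteins attach this complex to the extracellular matrix, and integrins, thrombospondin or proteases release the active cytokine. The active ligand binds the type II receptor, which recruits and phosphorylates the type I receptor. That receptor then phosphorylates the receptor SMADs, which enter the nucleus with the common SMAD. In the heart the pathway is known for its part in the activation of fibroblasts and in the production of matrix after pressure overload.

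The members were compared between TAB and sham in 2 ways. With the day as a block, the 5 days served as replicates of the difference between TAB and sham. The p-values therefore measure the spread of the 5 within-day differences, which includes time after surgery, differences between animals and array noise. For a single day there was no replicate, and a probe was called on that day when its log2 ratio of TAB over sham lay more than 2 SDs from 0, the SD being that of the log2 ratios of all 19976 probes on the same day. These limits were 1.75, 1.87 and 1.71 for days 3, 5 and 7 and 1.46 and 1.38 for days 14 and 28. Values of 5 days are given below in the order of the days. Levels are given as normalized intensity in arbitrary units. A level on 1 probe was not set against a level on another.

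Of the 10 member probes that were kept, 5 were higher in TAB and 0 were lower at an adjusted p below 0.05 (limma, Benjamini-Hochberg over all 19976 probes). They were the probes of Ltbp2, Tgfb3, Ltbp3 and Tgfbr2 and 1 of the 2 probes of Tgfb2. Over all probes, 7.47% were higher and 6.73% were lower. In the same 5 member probes, every TAB sample was above every sham sample, which held for 8.78% of all probes, and no member probe had every TAB sample below every sham sample, which held for 7.59% of all probes. Another 3 member probes (Tgfb1, Tgfbr3 and the other Tgfb2 probe) had an unadjusted p below 0.05 and were not called after adjustment. This state was common, since 6750 of all 19976 probes had an unadjusted p below 0.05 (limma) and 2836 were called. The calls needed nearly all of the days: the same fit called 0 member probes without day 3, 5, 7 or 14 and 6 without day 28, although the 5 called probes were higher in TAB on each of the 5 days. With dim probes set to 1 in place of removed, Ltbp2 was the only member called, and the other 4 probes had a limma adjusted p of 0.0516 to 0.0672. The median log2 difference was 0.65 over the member probes and -0.05 over all probes. In bulk tissue, fewer cells of a type and less RNA per cell cannot be told apart, and the same holds for more cells and more RNA per cell.

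**Figure D1:**
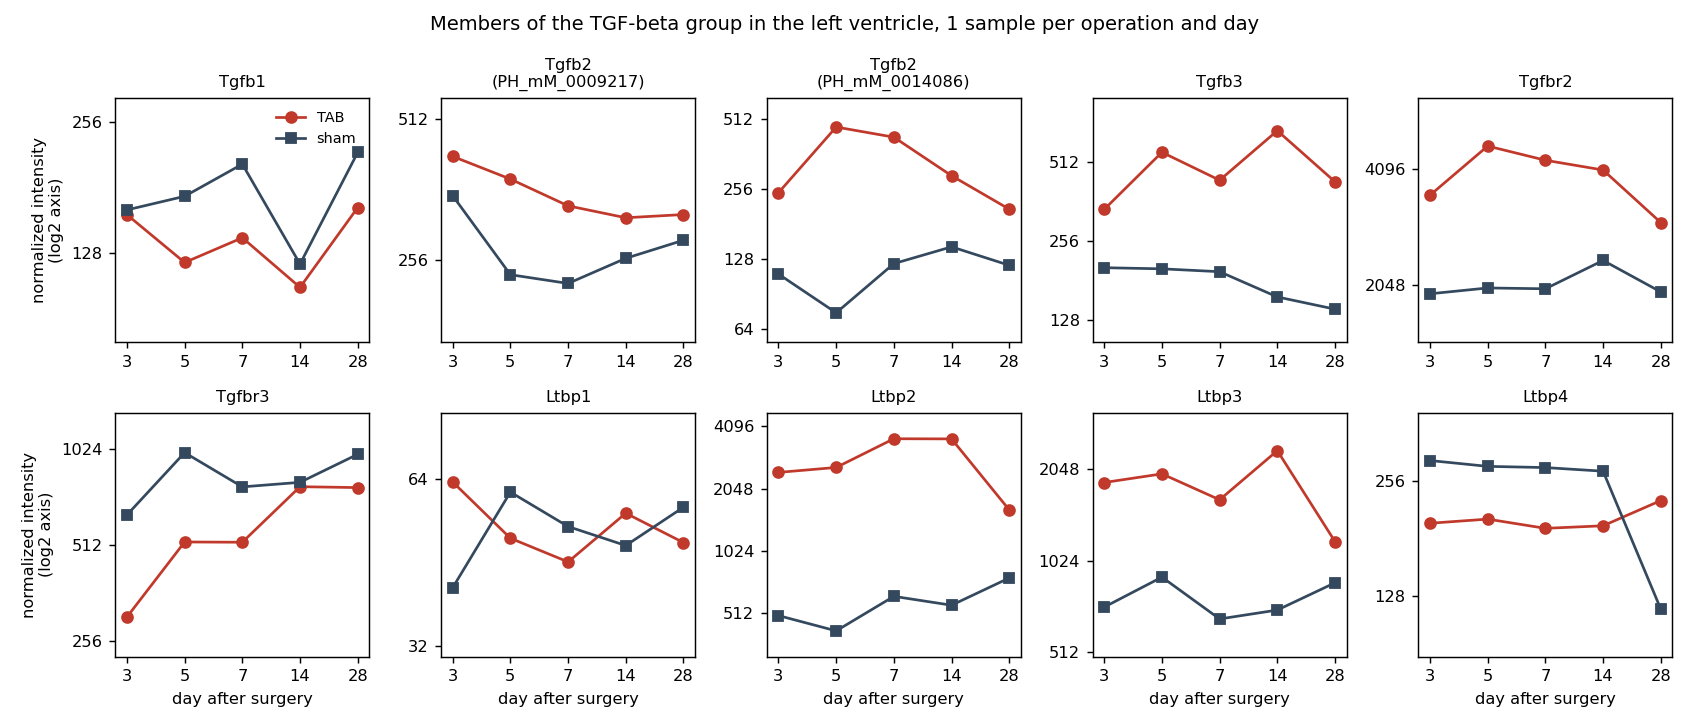
Normalized intensity (log2 axis) of the 10 kept member probes against the day after surgery (days evenly spaced), with TAB as circles and sham as squares, 1 sample per point. The circles lie above all squares in the panels of Tgfb3, Tgfbr2, Ltbp2, Ltbp3 and Tgfb2 probe PH_mM_0014086, and the sham sample of day 28 drops to 118 in the panel of Ltbp4.

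The promoters of the called members are shown because these genes were higher in TAB together. Promoter sequences of 300 bases, from 250 before to 50 after the annotated start, were taken from RefSeq on the build GRCm38.p6 for 8 of the 10 members, with 12 windows in all, some of which belong to 1 gene and overlap. Tgfb3 and Tgfbr3 are named only. The windows printed are those of Ltbp2 (chr12:84876442-84876741, minus strand), Ltbp3 (chr19:5740650-5740949, plus strand), Tgfb2 (chr1:186705940-186706239, minus strand) and Tgfbr2 (chr9:116175314-116175613, minus strand), each read 5′ to 3′ along the gene. Capitals mark matches, on either strand, to 4 motifs: CAGACA (the core bound by SMADs), TGANTCA (AP-1), GGAATG (MCAT, bound by TEAD factors) and GGGCGG (the GC box bound by SP1).
Ltbp2: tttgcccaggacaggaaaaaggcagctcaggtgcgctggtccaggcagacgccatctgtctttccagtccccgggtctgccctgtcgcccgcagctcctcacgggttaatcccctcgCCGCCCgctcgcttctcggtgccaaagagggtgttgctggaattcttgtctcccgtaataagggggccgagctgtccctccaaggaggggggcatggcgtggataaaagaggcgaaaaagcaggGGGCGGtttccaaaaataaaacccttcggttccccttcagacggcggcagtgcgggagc
Ltbp3: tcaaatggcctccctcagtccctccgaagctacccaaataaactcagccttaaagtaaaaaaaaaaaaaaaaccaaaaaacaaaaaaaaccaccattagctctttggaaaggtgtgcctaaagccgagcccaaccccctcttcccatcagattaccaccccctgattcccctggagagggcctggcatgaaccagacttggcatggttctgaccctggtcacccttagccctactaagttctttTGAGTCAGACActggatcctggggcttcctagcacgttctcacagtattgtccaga
Tgfb2: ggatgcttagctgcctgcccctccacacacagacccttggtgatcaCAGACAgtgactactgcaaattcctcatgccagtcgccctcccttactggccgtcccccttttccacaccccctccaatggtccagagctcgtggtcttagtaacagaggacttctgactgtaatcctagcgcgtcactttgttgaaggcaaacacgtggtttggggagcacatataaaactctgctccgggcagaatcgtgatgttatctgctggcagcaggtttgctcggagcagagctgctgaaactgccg
Tgfbr2: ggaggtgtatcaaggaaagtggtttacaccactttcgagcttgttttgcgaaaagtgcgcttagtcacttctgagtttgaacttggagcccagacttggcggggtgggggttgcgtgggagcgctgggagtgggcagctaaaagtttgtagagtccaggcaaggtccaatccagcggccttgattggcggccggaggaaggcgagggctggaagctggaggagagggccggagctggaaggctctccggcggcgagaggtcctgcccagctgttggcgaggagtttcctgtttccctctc

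The Ltbp2 window held 2 GC boxes, which began 133 and 9 bases before the start. The Ltbp3 window held 1 AP-1 motif and 1 CAGA motif that share bases, beginning 6 and 1 bases before the start. The Tgfb2 window held 1 CAGA motif 204 bases before the start, and no match lay in the Tgfbr2 window. Over the 12 member windows, the CAGA motif was found in 4, AP-1 in 1, MCAT in 0 and the GC box in 6. Of all 32851 windows of this length, 21% held the CAGA motif, 7.81% AP-1, 14.7% MCAT and 35.7% the GC box. These matches are a description of letters and no evidence of binding.

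Among the ligands, Tgfb3 and 1 probe of Tgfb2 were higher in TAB, whereas Tgfb1 was not called. Tgfb3 encodes the ligand isoform that is known from palate closure and wound repair. Its normalized intensity was 339, 560, 438, 677 and 432 in the 5 TAB samples, in the order of the days, and 203, 201, 196, 157 and 141 in sham. Every TAB sample was above every sham sample, with the highest TAB level on day 14 and the lowest sham level on day 28. The mean log2 difference was 1.42 ± 0.21 (SE, n = 5 days), a 2.68-fold difference (95% interval of the log2 difference 0.92 to 1.92, adjusted p = 0.0203, limma). On single days, Tgfb3 passed the limit on days 14 and 28, with ratios of 4.30 and 3.06, and its ratios on days 3, 5 and 7 were 1.67, 2.79 and 2.24.

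The 2 probes of Tgfb2, which encodes the ligand isoform needed for valve and septum formation, gave unequal differences. Probe PH_mM_0014086 read 246, 471, 426, 291 and 209 in TAB and 110, 75.0, 122, 144 and 120 in sham over the same days. Its TAB samples did not overlap with sham, and the largest gap was on day 5. The mean log2 difference on this probe was 1.49 ± 0.28 (SE, n = 5 days), or 2.81-fold, with a 95% interval of 0.80 to 2.18 (limma adjusted p = 0.0297). The ratio passed the limit on days 5 and 7, at 6.28 and 3.49, and was 2.24, 2.03 and 1.75 on days 3, 14 and 28.

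Probe PH_mM_0009217 of Tgfb2 read 426, 381, 334, 315 and 320 in TAB and 351, 238, 228, 258 and 282 in sham. TAB was above sham on each of the 5 days, but the sham level of day 3 was above the TAB levels of days 7, 14 and 28. The mean log2 difference was 0.40 ± 0.12 (SE, n = 5 days; 95% interval 0.11 to 0.69), with a limma adjusted p of 0.0737 that ran from 0.0241 to 0.136 over other settings with all days. The log2 ratio on PH_mM_0014086 was larger than that on PH_mM_0009217 on all 5 days, by 0.63 to 1.97 with a mean of 1.09 ± 0.55 (SD, n = 5 days). The position of each probe in the transcript was not given in the sources used here, so that isoforms and probe behaviour cannot be told apart.

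Tgfb1, the isoform most often studied in fibrosis, did not pass the test. Its normalized intensity was 157, 122, 139, 107 and 163 in TAB and 161, 173, 205, 121 and 218 in sham. TAB lay below sham on each of the 5 days, by 0.04 on the log2 scale on day 3 and by 0.56 on day 7, and the groups overlapped. Its mean log2 difference was -0.34 ± 0.12 (SE, n = 5 days; 95% interval -0.64 to -0.04; limma adjusted p = 0.111).

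Of the receptor genes, Tgfbr2 was higher in TAB and Tgfbr3 was not called. Tgfbr2 encodes the type II receptor, the kinase that binds the ligand first. Its level was 3507, 4705, 4322, 4077 and 2978 in TAB and 1945, 2014, 2004, 2374 and 1967 in sham. All TAB samples were above all sham samples, and the TAB level was highest on day 5 and lowest on day 28. On the log2 scale the mean difference was 0.91 ± 0.13 (SE, n = 5 days), or 1.88-fold, with a 95% interval of 0.60 to 1.23 (limma adjusted p = 0.0196). No single day passed the limit, since the ratio was between 1.51 on day 28 and 2.34 on day 5.

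Tgfbr3 encodes betaglycan, the co-receptor that presents ligand, TGF-beta2 above all, to the type II receptor. It read 304, 523, 522, 780 and 775 in TAB and 636, 998, 779, 805 and 986 in sham. The TAB sample was below the sham sample of the same day on 5 of 5 days, with ratios of 0.478 and 0.524 on days 3 and 5 and of 0.970 and 0.786 on days 14 and 28. The groups overlapped, because the TAB levels of days 14 and 28 were above the sham level of day 3. The mean log2 difference was -0.59 ± 0.18 (SE, n = 5 days; 95% interval -1.02 to -0.16; limma adjusted p = 0.0721). Over other settings with all days this adjusted p ran from 0.0189 to 0.130 (limma), and 4 of them called Tgfbr3 as lower. The log2 ratio of Tgfbr2 was above that of Tgfbr3 on every day, by 0.82 to 2.16 with a mean of 1.51.

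The probe of Tgfbr1, the type I receptor whose kinase acts on SMADs, was not found by the scanning software on any of the 10 arrays, with raw intensities between -5 and 2. Tgfbr1 was therefore not measured here, and nothing is said of its level.

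The latent binders held the largest difference among the members. Ltbp2 encodes the matrix protein that, unlike the other latent binders, does not bind latent TGF-beta and is linked to microfibrils and elastic fibres. Its normalized intensity was 2450, 2588, 3559, 3553 and 1616 in TAB and 500, 422, 619, 561 and 759 in sham. The lowest TAB sample, that of day 28, was above the highest sham sample, which was also that of day 28. Over the 5 days, TAB was higher by 2.24 ± 0.25 on the log2 scale (SE, n = 5 days), a 4.72-fold difference (95% interval 1.62 to 2.85, limma adjusted p = 0.0152). Ltbp2 passed the limit on 4 days, with ratios of 4.90, 6.13, 5.75 and 6.34 on days 3, 5, 7 and 14, and its ratio was 2.13 on day 28.

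Ltbp3, which is known to bind latent TGF-beta, was also higher in TAB. Its level was 1854, 1980, 1626, 2362 and 1183 in TAB and 719, 903, 657, 703 and 865 in sham. The groups did not overlap, although the day-28 TAB sample was 1.37-fold above the sham sample of that day. The mean log2 difference was 1.20 ± 0.19 (SE, n = 5 days), or 2.30-fold, with a 95% interval of 0.73 to 1.67 (limma adjusted p = 0.0239). The single-day limit was passed on day 14, at a ratio of 3.36.

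Neither Ltbp1 nor Ltbp4 was called. Ltbp1, which anchors latent TGF-beta in the matrix, read 63.3, 50.1, 45.4, 55.6 and 49.2 in TAB and 40.8, 60.7, 52.6, 48.6 and 57.0 in sham. Its raw intensity was 44 to 69, near the median of an array (34 to 57), and TAB was higher on 2 days and lower on 3. Its mean log2 difference was 0.03 ± 0.17 (SE, n = 5 days; 95% interval -0.38 to 0.43; limma adjusted p = 0.937).

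Ltbp4, which binds latent TGF-beta1 and takes part in elastic fibre assembly, read 198, 203, 192, 195 and 227 in TAB and 289, 279, 277, 271 and 118 in sham. On days 3, 5, 7 and 14, TAB lay below sham by 0.46 to 0.55 on the log2 scale, whereas on day 28 TAB was 1.93-fold above a sham sample that stood apart from the other 4 sham samples. With all 5 days the mean log2 difference was -0.21 ± 0.25 (SE, n = 5 days; 95% interval -0.82 to 0.40; limma adjusted p = 0.595). Without day 28 it was -0.50, with a limma adjusted p of 0.0455. The call on Ltbp4 therefore turns on day 28, and the sham sample of that day was not left out on its own.

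**Figure D2:**
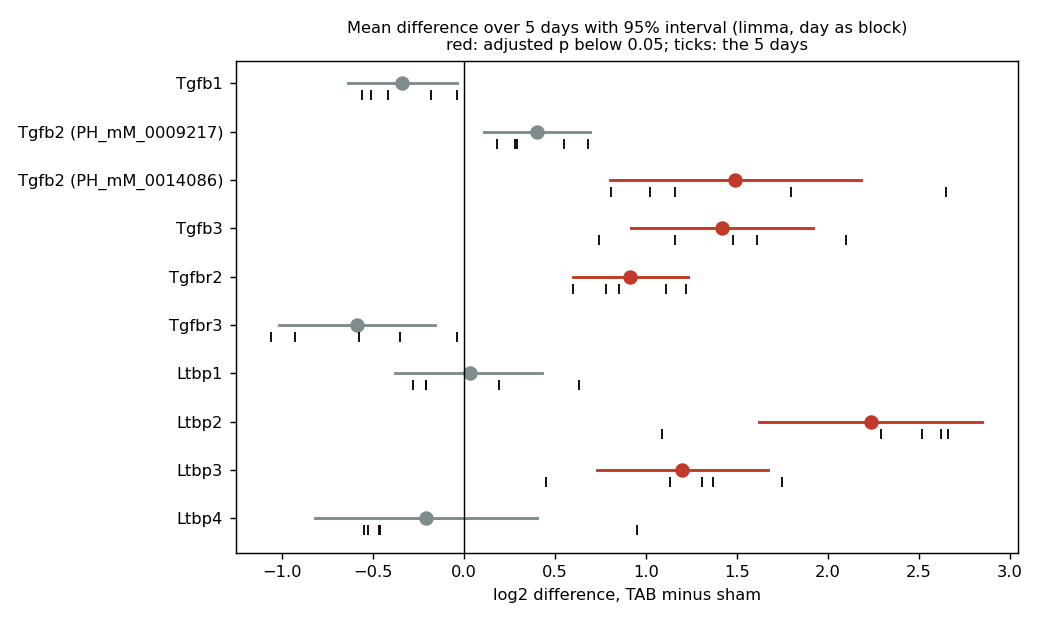
Mean log2 difference of TAB minus sham over the 5 days (points) with its 95% interval (lines) for each kept member probe, with the 5 single days as ticks below. The 5 red probes, from 0.91 for Tgfbr2 to 2.24 for Ltbp2, passed the test, and the intervals of Ltbp1 and Ltbp4 span 0.

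Over the single days, 9 of the 50 pairs of member probe and day passed the limit as higher in TAB and 0 as lower. Day 3 had 1 (Ltbp2), against 3.07% of all probes. Days 5 and 7 had 2 each (Ltbp2 and Tgfb2 probe PH_mM_0014086), against 3.77% and 3.71%. Day 14 had 3 (Ltbp2, Tgfb3 and Ltbp3), against 3.29%, and day 28 had 1 (Tgfb3), against 3.36%. The days on which the ratio peaked differed between members, being day 5 for both probes of Tgfb2 and for Tgfbr2 and day 14 for Ltbp2, Ltbp3 and Tgfb3.

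**Figure D3:**
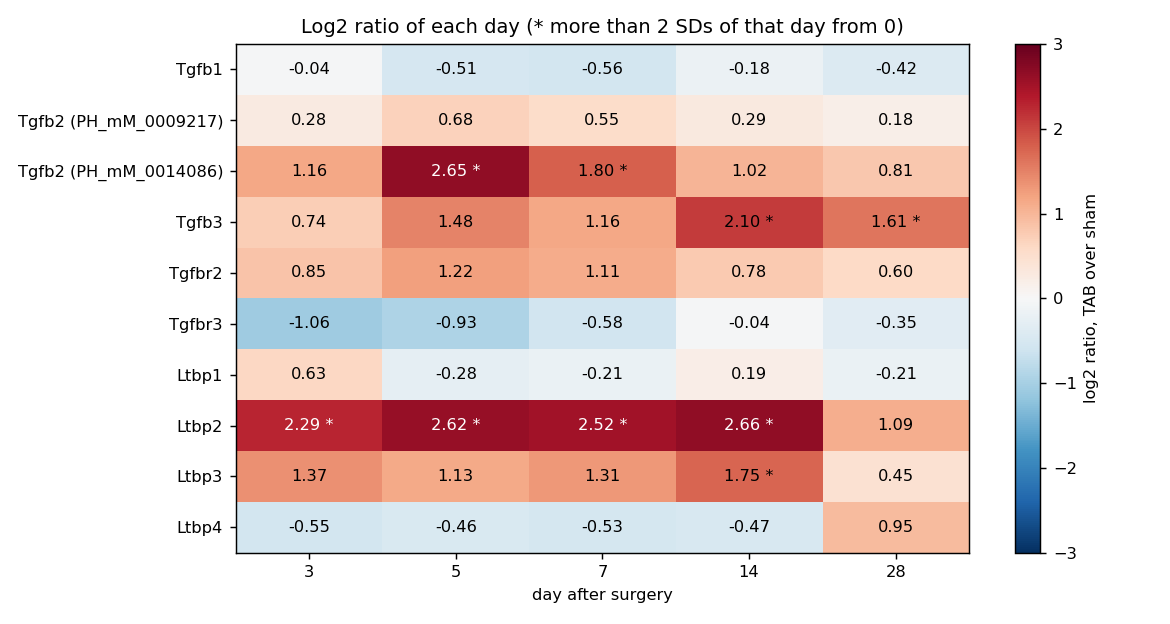
Log2 ratio of TAB over sham for each kept member probe (rows) and day after surgery (columns), with red for higher in TAB, blue for lower, and an asterisk where the ratio passed the limit for the day (2 SDs over all probes). All 9 asterisks are on the red side, and the 2 largest ratios are 2.66 for Ltbp2 on day 14 and 2.65 for Tgfb2 probe PH_mM_0014086 on day 5.

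Whether the TAB effect differed between the early days (3, 5 and 7) and the late days (14 and 28) was tested as the difference of the 2 mean log2 ratios. At an adjusted p below 0.05 this held for 0 member probes and for 0% of all probes (limma), with 1 member probe and 2086 of all probes at an unadjusted p below 0.05. That member was Tgfbr3, with a mean log2 ratio of -0.86 on the early days and -0.20 on the late days (difference 0.66, 95% interval 0.03 to 1.30, limma adjusted p = 0.469). Tgfb2 on PH_mM_0014086 went from 1.87 to 0.91 (difference -0.96, 95% interval -2.16 to 0.25), and Tgfb3 from 1.13 to 1.86 (difference 0.73, 95% interval -0.08 to 1.53). For Ltbp2, Tgfbr2 and Ltbp3 the differences were -0.60, -0.37 and -0.17, with intervals of -1.87 to 0.67, -0.93 to 0.19 and -1.25 to 0.91. The sign for Ltbp2 and Ltbp3 turned on 1 late day. Their differences were -1.39 and -0.82 without day 14 and 0.19 and 0.48 without day 28, whereas that of Tgfbr2 stayed negative. No early or late preference was therefore shown for any member, and intervals of this width do not show that the early and late effects were equal.

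The other genes of the pathway were taken from lists of genes that hold latent TGF-beta or release it, co-receptors and modulators, SMADs and partners, intracellular inhibitors, and target genes. Of the genes for latency and activation, 8 of 17 kept probes were higher in TAB and 0 lower, with a median log2 difference of 0.55. They belonged to Thbs1, Fbn1, Mmp2, Mmp14, Itgb5 and Itgb1, of which Itgb1 was called on 1 probe, at 0.45, and was at 0.17 on the other (limma adjusted p = 0.467). Thbs1, which encodes an activator of latent TGF-beta, had a mean log2 difference of 2.11 ± 0.46 (limma adjusted p = 0.0367), and Fbn1, the microfibril protein to which latent binders attach, had one of 2.08 ± 0.22 (limma adjusted p = 0.0143). The proteases Mmp2 and Mmp14 were 2.83-fold and 2.46-fold higher. Itgb5, a beta chain of the integrins that act on latent TGF-beta, was higher on all 3 of its probes, by 0.55 to 0.74. The integrin chain genes Itgav, Itgb3 and Itgb6 were not called, with mean log2 differences of 0.05, -0.00 and -0.58 (limma adjusted p of 0.799, 0.994 and 0.126). The probe of Itgb8, another such chain, was not found on any array.

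Of the co-receptors and extracellular modulators, 4 of 11 kept probes were higher and 0 lower, with a median of 0.26. Bgn and Fmod, which encode small proteoglycans of the matrix that bind TGF-beta, had mean log2 differences of 1.93 (limma adjusted p = 0.0139) and 1.12 (adjusted p = 0.0265). Acvrl1, the type I receptor ALK1 of endothelial cells, had one of 0.86 (adjusted p = 0.0191). Cd109, a co-receptor that restrains TGF-beta signalling, was called on 1 probe (adjusted p = 0.0205), which was found on 1 of 5 sham arrays, so that no size is given, and was at 0.19 with an adjusted p of 0.289 on its other probe.

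Inside the cell, the list of SMADs and partners had 1 of 9 kept probes higher and 0 lower, with a median of 0.03. The called gene was Tgfb1i1 (Hic-5), a focal adhesion protein induced by TGF-beta, at 0.99 ± 0.21 (limma adjusted p = 0.0347). The receptor SMAD genes were not called, with mean log2 differences of 0.42 and -0.05 on the 2 probes of Smad2 and -0.04 on that of Smad3. Of the intracellular inhibitors, 4 of 10 kept probes were higher and 0 lower, with a median of 0.15. They were Tgif1 and Skil, which encode SMAD corepressors, at 1.84 (adjusted p = 0.0180) and 0.74 (adjusted p = 0.0265), Pmepa1, which encodes a membrane protein that sequesters receptor SMADs, at 0.86 (adjusted p = 0.0255), and Fkbp1a, which encodes a protein that holds the type I receptor inactive, at 0.47 (adjusted p = 0.0431). Smad7, the inhibitory SMAD that is itself a target of the pathway, was at 0.21 with an adjusted p of 0.270.

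Among the target genes, 11 of 12 kept probes were higher and 0 lower, with a median of 3.09, or 2.98 with probes not found in any sham sample at their bound. Large mean log2 differences were those of Timp1, the metalloproteinase inhibitor, at 5.02 ± 0.63 (limma adjusted p = 0.0174), and Col3a1, a fibrillar collagen, at 3.68 ± 0.48 on a probe found on 4 of 5 sham arrays (adjusted p = 0.0178). Lox, which encodes an enzyme that crosslinks collagen, read 109 to 1090 in TAB and 9.34 to 39.5 in sham on 1 probe, which was called (adjusted p = 0.0205) but found on 2 of 5 sham arrays, so that no size is given. The other Lox probe, which was not well above background in any of the 5 sham samples, was at least 8.98-fold higher in TAB (adjusted p = 0.0159), where the sham level was taken, on each array, as the lowest signal of a found spot or the probe's own if that was higher. The kept probe that was not called was that of Acta2, smooth muscle actin, at 0.53 (limma adjusted p = 0.295). This mean covers a change of sign, with log2 ratios of 0.91, 1.27 and 1.22 on days 3, 5 and 7 and of -0.23 and -0.52 on days 14 and 28. The probe of Col1a1 and the other of Acta2 were removed by the filter on low values. Many targets of TGF-beta also answer to other signals, and no link between the members and these genes was tested.

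**Figure D4:**
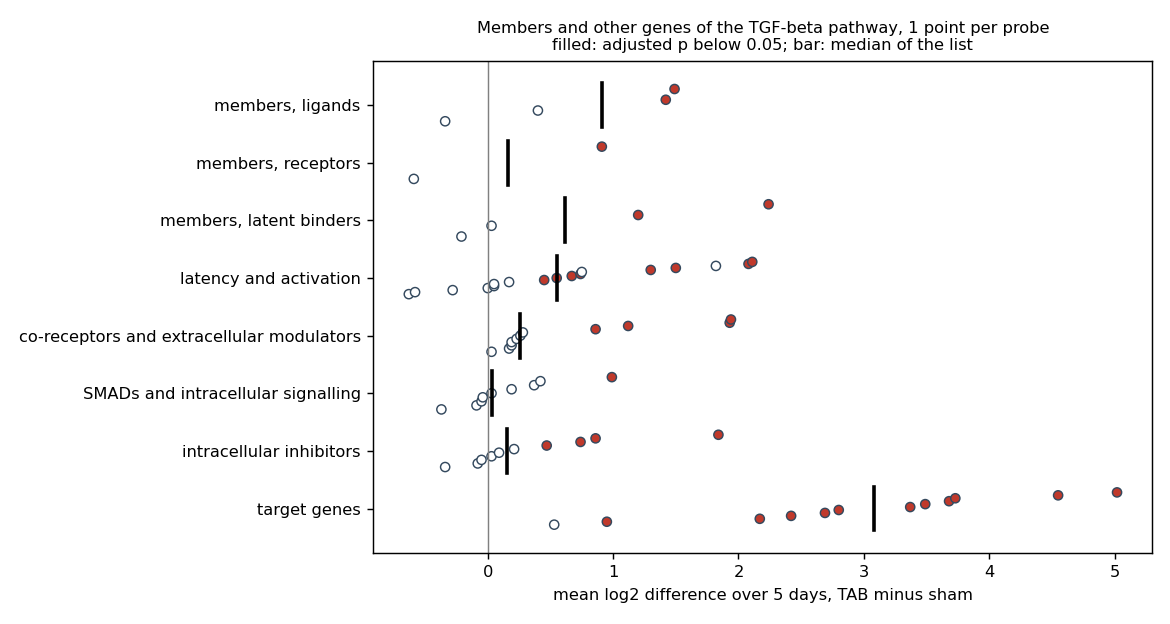
Mean log2 difference of TAB minus sham over 5 days, 1 point per kept probe, for the members by role and for the other pathway lists, with filled points for an adjusted p below 0.05 and a bar at each list's median. Filled points lie on the positive side in every list, and the medians run from 0.03 for SMADs and partners to 3.09 for target genes.

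Markers of the cell types in the ventricle moved with some of these results. All 7 kept leukocyte marker probes were higher in TAB, and their summed level was 3063 to 7600 in TAB and 1949 to 2370 in sham, with the highest sums on days 5 and 7. Of the fibroblast marker probes, 3 of 6 were higher, 1 of them on a probe found on 2 of 5 sham arrays. The sum of the 6 was 5459 to 8106 in TAB and 4620 to 5033 in sham, with the highest value on day 14 and the lowest TAB value on day 28. Most of this sum came from the probes of Lum, which was called, and Dpt, which was not. The highest TAB level fell on day 14 for Ltbp3 and Tgfb3, on day 7 for Ltbp2 and on day 5 for Tgfbr2 and Tgfb2 probe PH_mM_0014086. The probe of the fibroblast marker Pdgfra was removed by the filter on low values. Of 8 endothelial marker probes, 0 were called by limma (1 at an unadjusted p below 0.05), with sums of 10063 to 13244 in TAB and 9375 to 11054 in sham. Among 5 smooth muscle and pericyte probes 1 was called by limma (3 at an unadjusted p below 0.05, in both directions), with sums of 2174 to 2962 in TAB and 2287 to 3084 in sham. Of 3 erythrocyte marker probes, 0 were called by limma (1 at an unadjusted p below 0.05), with sums of 476 to 874 in TAB and 364 to 425 in sham, which did not overlap. The part of these cell types in the changes of the members was not tested.

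The ventricular cardiomyocyte markers were found on all arrays, with 0 of 7 called by limma (0 at an unadjusted p below 0.05). The probe of Myl2 was at the top of the range of the scanner on most arrays, so that a change in it could not be seen. Atrial markers were present too, with sums of 2556 to 4760 in TAB and 4390 to 9973 in sham and 0 of 3 probes called (1 at an unadjusted p below 0.05). The sum was highest in the sham sample of day 14, at 9973, and lowest in the TAB sample of the same day, at 2556, and these samples gave the largest ratios of Tgfb3, Ltbp2 and Ltbp3. The part of atrial tissue in these ratios was not tested. Without day 14, the mean log2 differences were 1.25 for Tgfb3, 2.13 for Ltbp2 and 1.06 for Ltbp3, each still higher on the other 4 days, with limma adjusted p of 0.0512, 0.0506 and 0.0545.

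**Figure D5:**
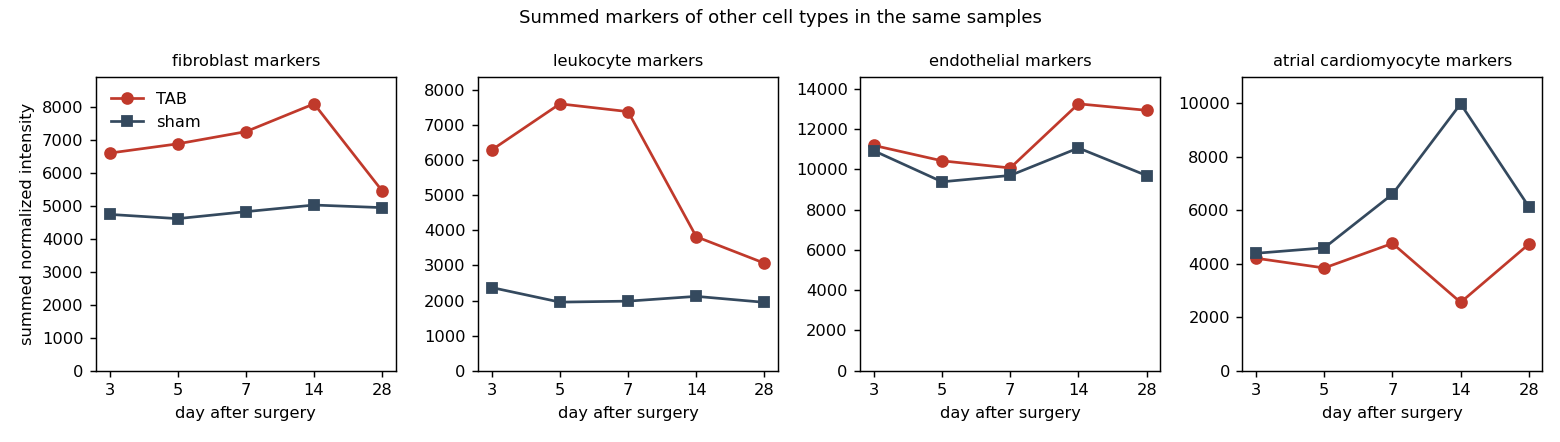
Summed normalized intensity of the kept probes of 4 marker lists (vertical axes from 0) against the day after surgery, with TAB as circles and sham as squares. The leukocyte and fibroblast sums of TAB lie above sham on all days, and the atrial sums are farthest apart on day 14, at 2556 in TAB and 9973 in sham.

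The probes whose log2 levels followed each called member most closely were listed by Pearson's r over the 10 samples, as a description. Since both operations enter, the difference between TAB and sham is part of every r. For Ltbp2 they were Ctsk, Fstl1 and Carhsp1, with r of 0.992, 0.991 and 0.988. For Tgfbr2 they were Fbln2, Pde1a and Ddah1, from 0.986 to 0.989, and for Tgfb3 Aspn, Itgb5 and Cd9, from 0.978 to 0.983. For Ltbp3 they were Rwdd2b, Itgb5 and Rbms3, from 0.972 to 0.977, and for Tgfb2 probe PH_mM_0014086 Marcksl1, Ctsz and Cmtm3, from 0.979 to 0.981. Itgb5 was thus near the top for both Tgfb3 and Ltbp3, but on a different probe for each (PH_mM_0016295 and mMR029174).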

How the data were processed

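Raw intensity per probe, as the authors deposited it, came from Mouse Whole Genome OneArray slides hybridized with Cy5-labelled RNA, 1 colour per array, and quantified in GenePix 4.1; a background had been subtracted, and arrays had not been scaled to each other. The deposited detection p-value was not used, since its median at raw intensities between 150 and 250 ran from 0.00111 to 0.421 between arrays, and the deposited flag, of unstated meaning, was read as a spot not found where it was negative. Found spots made up 52.7% to 59.8% of an array, and the median raw intensity was 34 to 57; precision is limited by the number of arrays.

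Arrays were brought to 1 median, and a probe under 1 on at least 1 array was left out. Quantile normalization over all 10 arrays, with the median at each rank as target, and log2 followed. Probes were fitted singly, since probes of 1 gene differed. The mean TAB effect and its difference between early and late days were tested with limma 3.58.1 (R 4.3.3; lmFit and eBayes, trend and robust off) with a block for day, with p-values adjusted by Benjamini-Hochberg over 19976 probes, with a threshold of 0.05. Samples were paired by day, as in the study's ratios; the deviations of same-day samples correlated across probes with r = 0.112 on day 3 and 0.00148 to 0.0466 on the other days. A probe not found on any array of an operation was given a bound in place of a fold.

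All members were named, with at most 4 called probes of each other pathway list by size, Smad2, Smad3 and Smad7, and the 3 probes most like each called member. Itgav, Itgb1, Itgb3, Itgb5, Itgb6, Itgb8, Acta2, Col1a1, Pdgfra, Lum and Dpt were named after their values were seen. The members, lists, motifs and settings were chosen with earlier results of these data known. Alternatives were other scalings, 50 added before log2, other filters on low values, 1 probe per gene, no block, trend and robust on, other limits for single days, and each day left out. Leaving out a day from the difference between early and late days, and single-day calls on found probes only, were chosen after seeing the data. Tables and figures were made with Python 3.11.15, numpy 2.4.6, pandas 2.3.3 and matplotlib 3.10.9.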

Additional observations from a re-analysis of the deposited data

Results flagged for a closer look

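Of the 20 groups of 5 samples formed by the kept member probes and the operations, 2 held a sample that stood far from the others, measured as its gap to the nearest sample over the range of the group, against a critical value of 0.71. Chance flags about 1 in 20 such groups. The sham sample of day 28 had an Ltbp4 level of 118, against 271 to 289 in the other sham samples (gap over range 0.925). The sham sample of day 14 had a Tgfbr2 level of 2374, against 1945 to 2014 in the other sham samples (0.825), and was still below every TAB sample.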

How the results depend on the processing

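When a day was left out, the number of called member probes ran from 0 to 6 and that of all called probes from 13 to 2773, against 5 and 2836 with all days. No member probe was called without day 3, 5, 7 or 14 (13, 35, 23 and 184 of all probes), whereas 6 were called without day 28, among them Ltbp4 as lower. The mean log2 differences of the 5 called probes stayed positive, at 0.83 to 0.99 for Tgfbr2, 2.13 to 2.52 for Ltbp2, 1.06 to 1.39 for Ltbp3, 1.25 to 1.59 for Tgfb3 and 1.20 to 1.66 for Tgfb2 probe PH_mM_0014086. With probes below 1 set to 1 in place of removed, 1 member probe (Ltbp2) and 371 of 26423 tested probes were called. With 50 added before log2, only probes found on all arrays, the lowest tertile left out, or trend and robust on, 7 member probes were called. Tgfb2 probe PH_mM_0009217 was added as higher and Tgfbr3 as lower. In the same order, 4890 of 19976, 4380 of 12654, 4377 of 13317 and 4726 of 19976 tested probes were called. In each of these settings a larger share of all tested probes passed than in the main fit, with 2836 of 19976. The difference between early and late days was then called for 9, 9, 3 and 35 of the tested probes, none of them a member. Median scaling alone called 1747 higher and 884 lower probes, and normalization within each operation 1856 and 979, against 1492 and 1344, and both added Tgfb2 probe PH_mM_0009217. Without the replicate block, 5 member probes and 3875 of all probes were called, and the block changed no call of a member. Of 50 pairs of member probe and day, single-day calls numbered 21 (1 of them lower) with 50 added and 20 (1 lower) at an absolute log2 ratio of at least 1. They numbered 15 on found probes only and 6 with probes below 1 set to 1, against 9. With the mean of all kept probes of a gene, 7 of 45 pairs were called. A limit of 1 is below the main limit of every day. The share of all probes passing under these other rules was not computed, so that these counts show nothing particular to the members. The causes were not tested. Depth is not known for arrays, and the signal of Ltbp1 was near the median of an array.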
